A study of Mus musculus with 18 samples.

Results

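The comparison described here is that of sedentary mice on a high-fat diet (HF) with sedentary mice on a low-fat diet (LF), measured in the liver across all genes. Its members were chosen by their labels alone: the 3 HF and the 3 LF arrays, 6 of the 18 arrays of the series. All mice were male C57BL/6J, an inbred laboratory strain that becomes obese on fat-rich food, were bought at 4 weeks of age, were housed singly and were killed at 62 weeks. From 5 weeks of age, and therefore for 57 weeks, HF mice ate a diet with 60% fat and LF mice one with 10% fat. Both ate without limit and neither had a running wheel. The other 4 groups ate the same diets with a running wheel (HF+Ex and LF+Ex) or with 30% fewer calories (HF+CR and LF+CR), again with 3 arrays each. Each group had 30 mice assigned to it, and each array came from a different mouse, so that 3 mice stand for each group. RNA of whole liver was hybridised to Affymetrix Mouse Genome 430 2.0 arrays, on which several probe sets can report 1 gene. The labels do not say whether the mice were fed or fasted, nor the time of day at which they were killed.

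The liver of a mouse that eats much fat stores triglyceride in lipid droplets, which are coated by proteins of the perilipin and CIDE families. PPAR-gamma, a nuclear receptor with a low level in lean liver, drives several of these genes and genes of fatty acid uptake. The mouse liver also differs between the sexes: the pulsed release of growth hormone in males acts through the transcription factor STAT5B to keep male-biased genes on and female-biased genes off. Cholesterol and fatty acid synthesis are set by the SREBP transcription factors, and NRF2 drives glutathione and detoxification genes.

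The starts of 2 related female-biased genes that rose together are shown first. The promoters of Cyp2b9 (chr7:26173159-26173458) and Cyp2b13 (chr7:26061245-26061544), both on the plus strand of GRCm38.p6 and reaching from 250 bases before to 50 bases after the start in RefSeq, were identical at 298 of 300 positions. They differed by T48C and C104T, counted from 1 at the 5′ end with the Cyp2b9 base first, and capitals mark these bases.
Cyp2b9: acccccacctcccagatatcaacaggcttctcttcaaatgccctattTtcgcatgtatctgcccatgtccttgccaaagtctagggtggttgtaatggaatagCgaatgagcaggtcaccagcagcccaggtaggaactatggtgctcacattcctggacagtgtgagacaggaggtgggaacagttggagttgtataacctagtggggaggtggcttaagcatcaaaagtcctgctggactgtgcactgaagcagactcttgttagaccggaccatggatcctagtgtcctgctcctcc
Cyp2b13: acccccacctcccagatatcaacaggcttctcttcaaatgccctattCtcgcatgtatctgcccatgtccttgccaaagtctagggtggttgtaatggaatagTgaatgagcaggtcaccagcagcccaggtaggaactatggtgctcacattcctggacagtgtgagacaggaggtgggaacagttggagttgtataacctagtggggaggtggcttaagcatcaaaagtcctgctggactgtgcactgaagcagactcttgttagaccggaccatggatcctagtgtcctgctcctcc
Keg1, a male-biased gene that fell, is shown because its promoter (chr19:12695540-12695839, plus strand, same build and span) held 2 matches to TTCNNNGAA, the letters that STAT5 factors are known to bind. Capitals mark the matches.
Keg1: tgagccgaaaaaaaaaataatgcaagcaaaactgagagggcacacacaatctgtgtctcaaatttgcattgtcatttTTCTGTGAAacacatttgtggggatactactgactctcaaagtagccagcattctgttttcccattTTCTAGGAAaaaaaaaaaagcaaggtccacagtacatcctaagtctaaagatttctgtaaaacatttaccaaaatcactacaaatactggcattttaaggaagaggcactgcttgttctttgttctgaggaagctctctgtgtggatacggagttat
TTCNNNGAA reads the same on both strands and did not overlap another motif searched. It was found in 9.55% of all 27025 RefSeq promoters of this span, in 8.36% of those of the genes tested that had one, in 7 of 74 promoters of genes that rose and in 4 of 28 promoters of genes that fell (Keg1, Nlrp12, Ankrd9 and Slc7a1). The perfect repeat bound by PPAR factors was found on either strand in 13 of all these promoters, in 0 of the 74 and in 0 of the 28. A match is a description of the letters, and no match says only that the letters are not in this window.

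Across the liver transcriptome, changes in HF mice included rises of 2 lipid droplet genes (Cidea and Plin4) and 3 female-biased genes, and falls of 6 male-biased genes. Of 14198 genes tested, 128 changed (0.902%; limma with Benjamini-Hochberg adjustment over all genes, adjusted p under 0.05), of which 89 rose (0.627%) and 39 fell (0.275%). Changes were mostly small. The median size of a change was 0.52 on the log2 scale, 13 genes rose and 8 fell by at least 2-fold, and 2 rose and 3 fell by at least 4-fold. The HF and LF values did not overlap in any of the 128 genes, as in 22.6% of all genes tested. The median log2 fold change of all genes was -0.03 and the median standard error 0.0853, and 2314 genes had an unadjusted p under 0.05. The count rested on single arrays: it was 23 without HF 1, 201 without HF 2, 24 without HF 3, 32 without LF 1, 91 without LF 2 and 52 without LF 3.

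**Figure D1:**
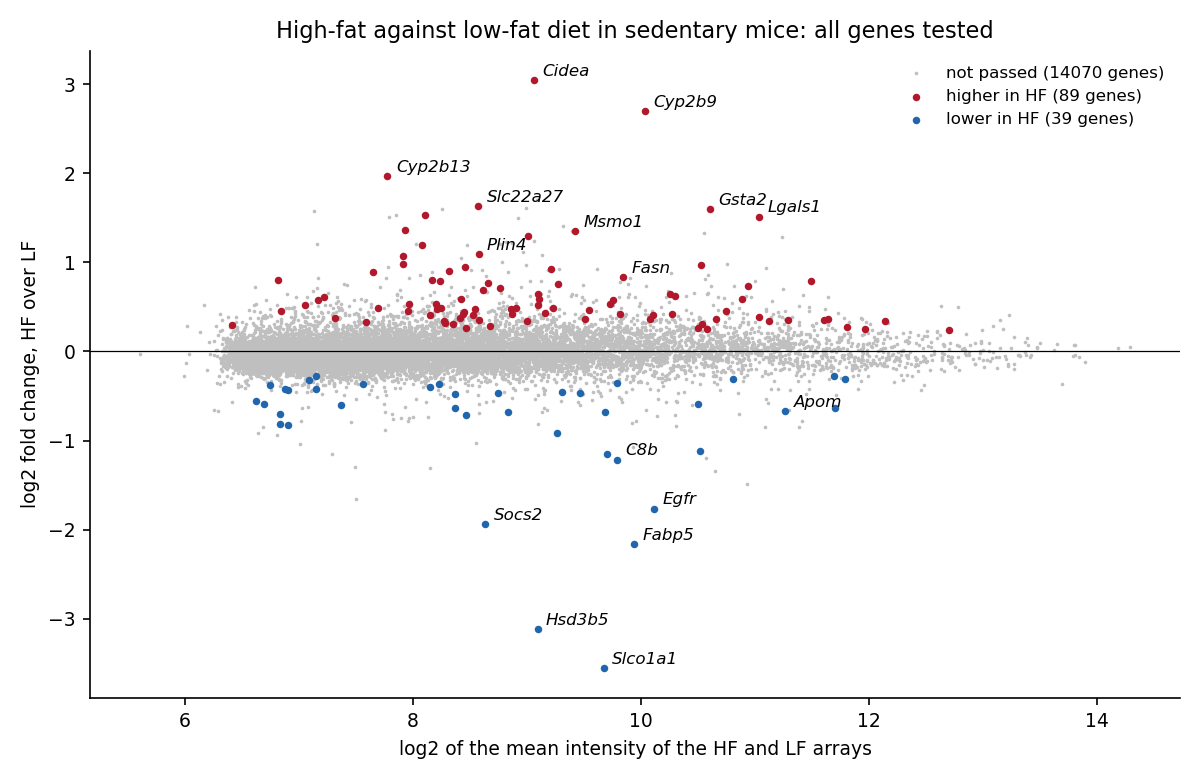
Log2 fold change of HF over LF for each gene tested (vertical axis) against log2 of the mean intensity of the 6 arrays (horizontal axis). Red points are the 89 genes that rose, blue points the 39 that fell and grey points genes that did not pass. Cidea and Cyp2b9 lie highest and Slco1a1 and Hsd3b5 lowest.

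Within each group the arrays agreed closely, with correlations of log2 values from 0.98667 to 0.99278 among HF arrays and from 0.98391 to 0.98908 among LF arrays. Some mice stood apart. HF 1 lay far out on the first principal component (-21.18, against -8.556 and -4.759 for the other HF mice and 6.292 to 7.914 for LF mice), and it was the highest HF mouse in 62 of the 89 genes that rose (69.7%, against 29.0% of all genes). LF 1 held transcripts of pancreatic digestive enzymes, with a summed intensity of 3728 over 10 acinar markers, against 1225 to 1294 in HF mice and 1342 and 1481 in the other LF mice. Without the 4 arrays of the series that held such transcripts, LF 1 among them, 13 genes changed, all of them among the 128, and the part of these transcripts in the other calls was not tested. LF 1 also had a different balance of clock genes, with log2 Arntl minus log2 Dbp at -1.88, against -4.01 to -2.84 in HF mice and -3.42 and -4.03 in the other LF mice. Markers of hepatocytes were bright on all 6 arrays, with summed intensities of 77530 to 80080 in HF mice and 76579 to 81394 in LF mice over 8 genes. A gene is called dim on an array below the 40th percentile of that array, which lay between 88.22 and 95.85 on these 6.

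Of 18 male-biased genes of the hepatocyte tested, 6 fell and 0 rose, against 0.275% of all genes that fell. The 18 tested all had a log2 fold change below 0, with a median of -0.61 against -0.03 over all genes (42.4% of all genes lay above 0). In 13 of them every HF mouse lay below every LF mouse, against 22.6% of all genes without overlap in either direction. In bulk liver, fewer cells of a type and less RNA per cell cannot be told apart.

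Slco1a1 encodes a transporter that takes up organic anions such as bile acids and steroid conjugates. Its intensity was 110, 118 and 103 in HF mice, against 1302, 1163 and 2103 in LF mice. The groups were far apart, with every HF value near the dim level, and the log2 fold change was -3.56 (SE 0.375, adjusted p = 0.0005, limma). Hsd3b5, a male-specific enzyme of steroid metabolism, read 73.1, 75.3 and 70.2 in HF mice, against 243, 884 and 1936 in LF mice (log2 -3.11, adjusted p = 0.0131). All 3 HF values were dim, so that the fall is given as a bound: the mean of LF mice was at least 7.19-fold higher than the HF mean raised to the lowest bright signal of each array. LF mice differed much among themselves in this gene, and its call was lost without HF 1, HF 3 or LF 3 (highest adjusted p = 0.0699).

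Egfr, the receptor of epidermal growth factor, which is male-biased in mouse liver, read 372, 456 and 692 in HF mice and 1802, 1927 and 1421 in LF mice (log2 -1.76, SE 0.339, adjusted p = 0.0215). Its 5 other bright probe sets gave log2 fold changes from -1.56 to -0.16, so that the size depends on the probe set. C8b, a chain of the complement membrane attack complex, read 471, 553 and 537 in HF mice and 928, 1315 and 1509 in LF mice (log2 -1.21, adjusted p = 0.0103). Keg1, a gene of the glycine N-acyltransferase family whose promoter is shown above, read 675, 1206 and 915 in HF mice and 1824, 2067 and 2090 in LF mice (log2 -1.12, adjusted p = 0.0413). Every HF mouse was below every LF mouse in each of these genes. Ugt2b38, a glucuronosyltransferase gene, was dim in HF mice, and its LF mean was at least 1.28-fold higher (adjusted p = 0.0272). The other members gave values that did not pass, such as Elovl3, a fatty acid elongase (825, 746 and 1620 in HF mice, 3250, 2485 and 2804 in LF mice, log2 -1.49, adjusted p = 0.130), and the complement gene C6 (log2 -0.78, adjusted p = 0.0509). Calls were lost without single arrays for Egfr (without HF 1, LF 1, LF 2 or LF 3, adjusted p up to 0.136), C8b (without HF 1, 0.062), Keg1 (with any array other than HF 2 left out, up to 0.231) and Ugt2b38 (without HF 1, HF 3, LF 1 or LF 3, up to 0.136).

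Among 17 female-biased genes tested, 3 rose and 0 fell, against 0.627% of all genes that rose, and 11 had a log2 fold change above 0 (median 0.18). Over all genes, 42.4% lay above 0. HF mice lay above LF mice without overlap in 4 of the 17 and below in 1, against 22.6% of all genes in either direction. At an unadjusted p under 0.05 in limma, 6 of the 17 were higher and 0 lower. Of all 14198 genes, 2314 had such a p in either direction. In runners on the same diets, 6 of the 17 were called higher and 0 lower, against 1.06% and 0.662% of all genes. Cyp2b9, a female-typical cytochrome P450, read 1565, 1966 and 1925 in HF mice and 189, 432 and 227 in LF mice (log2 2.70, SE 0.268, adjusted p = 0.000441). Cyp2b13, of the same family, read 250, 539 and 300 in HF mice, whereas all 3 LF mice were dim (77.3, 79.97 and 71.3), and the HF mean was at least 3.29-fold higher (adjusted p = 0.0103). Whether the probe sets of these related genes share signal was not tested. Slc22a27, a transporter of the organic anion family, read 420, 736 and 581 in HF mice and 291, 144 and 117 in LF mice (log2 1.63, adjusted p = 0.011). HF 3 decided that call (adjusted p = 0.0572 without it). Acot3, an acyl-CoA thioesterase, lay the other way (log2 -0.73) and did not pass.

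In the growth hormone and IGF1 axis, 1 of 19 genes fell and 0 rose, against 0.275% and 0.627% of all genes. The median log2 fold change of the 19 was -0.15. HF mice lay below LF mice without overlap in 5 of the 19 and above in 2, against 22.6% of all genes in either direction. Socs2, a feedback inhibitor that growth hormone induces through STAT5, read 115, 260 and 106 in HF mice, against 856, 425 and 624 in LF mice (log2 -1.93, SE 0.357, adjusted p = 0.0181). The highest HF value was below the lowest LF value, and its 4 other bright probe sets gave -1.95 to -0.19. The call was lost without HF 1, HF 3, LF 1 or LF 3 (adjusted p up to 0.106). The growth hormone receptor gene Ghr (log2 0.08) and Stat5b (log2 0.05) did not pass, nor did the hormone gene Igf1 (log2 -0.27, adjusted p = 0.145) and the binding protein gene Igfbp2 (log2 -0.85, adjusted p = 0.0525). 2 further receptor genes belong beside these by role. Lifr, the receptor of leukaemia inhibitory factor, read 389, 625 and 521 in HF mice and 1247, 894 and 1309 in LF mice (log2 -1.15, adjusted p = 0.0442, lost without HF 1, HF 3, LF 1 or LF 3 with adjusted p up to 0.240), with log2 fold changes of -0.40 and -0.25 at its other probe sets. Lepr, the leptin receptor, was dim in all HF mice (74.0, 80.9 and 77.6) and read 280, 211 and 364 in LF mice, and did not pass (adjusted p = 0.0578).

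**Figure D2:**
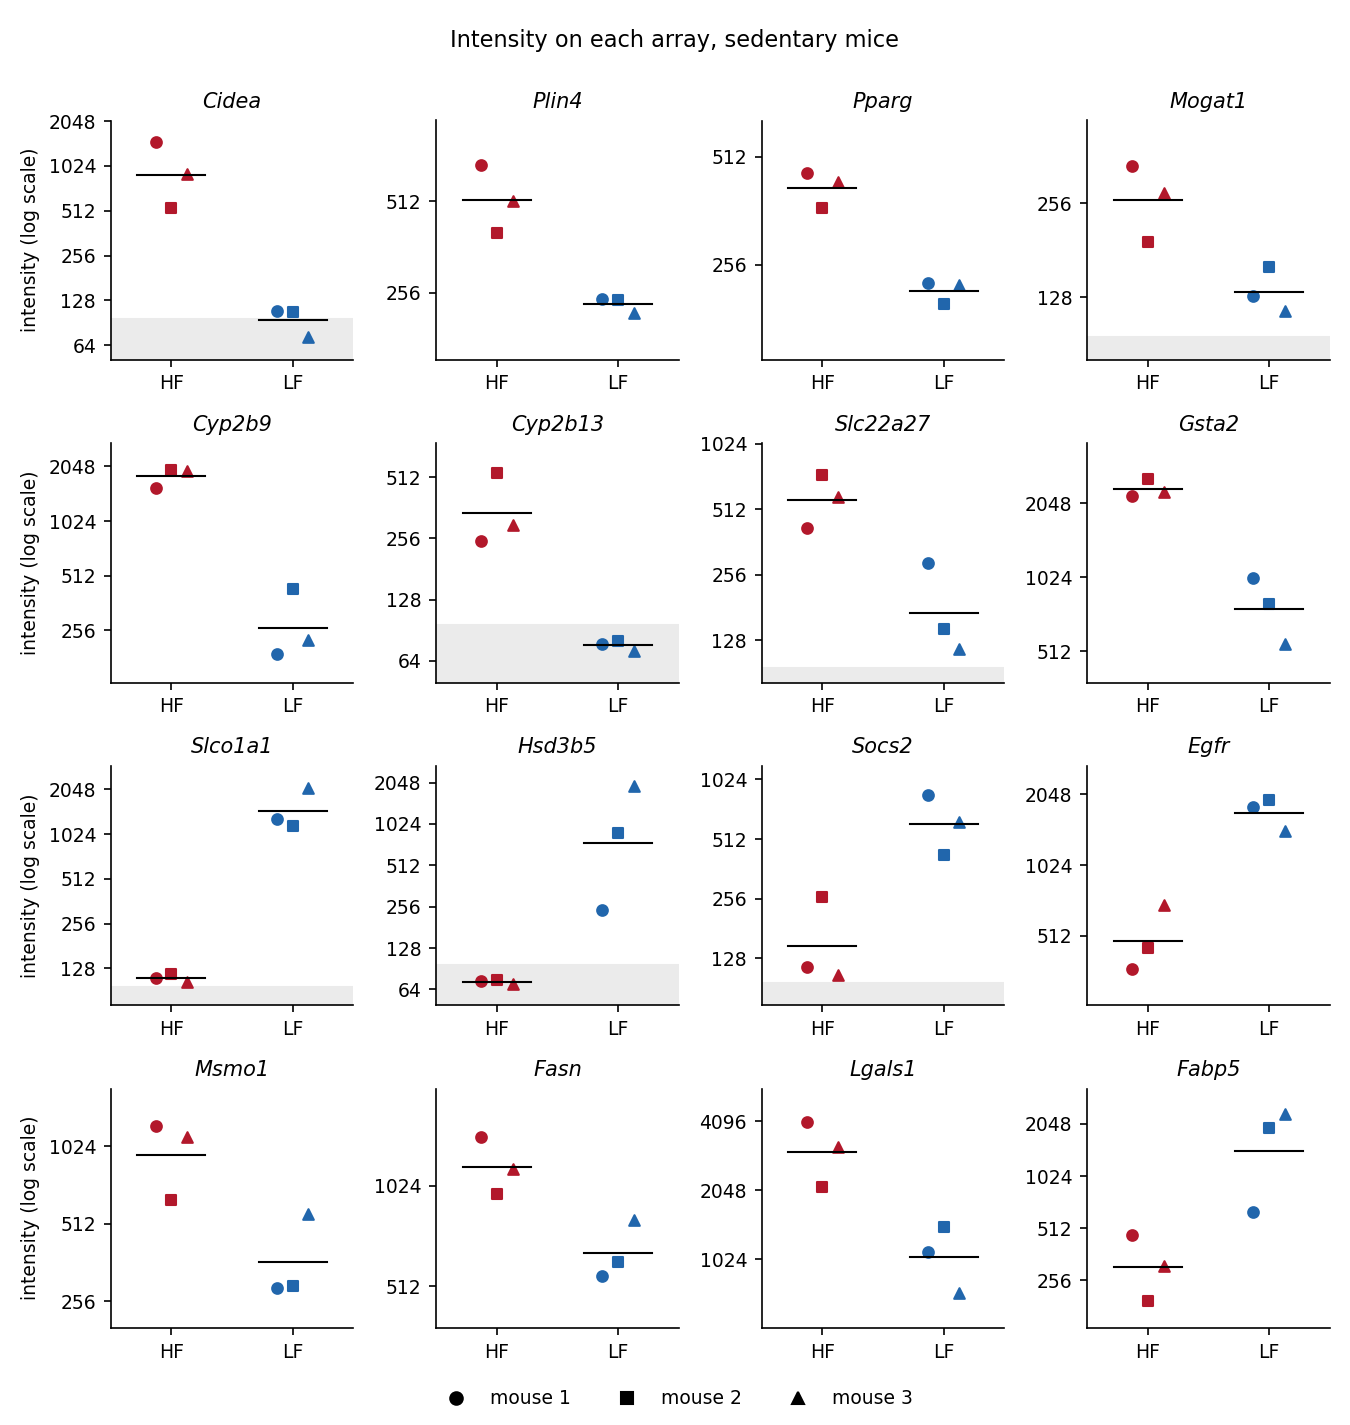
Intensity of 16 genes on each array (vertical axis, log scale), HF mice left in red and LF mice right in blue. Points are mice, whose numbers are not stated to pair HF with LF, the bar is the geometric mean of 3 mice and the grey band lies below the highest dim threshold of these arrays (95.85). HF and LF mice do not overlap in any panel, and HF 1 is the highest HF mouse in Cidea, Plin4, Pparg, Mogat1, Msmo1, Fasn, Lgals1 and Fabp5.

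Among proteins that coat lipid droplets, the fat cell genes Cidea and Plin4 rose. Of 19 droplet genes tested, 2 rose and 0 fell, against 0.627% and 0.275% of all genes, and the median log2 fold change was 0.04. Without overlap, HF mice lay above LF mice in 5 of the 19 and below in 2, against 22.6% of all genes in either direction. Cidea, which fuses small droplets into large ones and is a marker of brown fat, read 1479, 536 and 904 in HF mice and 108, 107 and 72.7 in LF mice (log2 3.05, SE 0.405, adjusted p = 0.004). LF mice lay near the dim level, and the lowest HF value was well above the highest LF value. Plin4, a perilipin of fat cells, read 674, 401 and 512 in HF mice and 244, 241 and 220 in LF mice (log2 1.09, SE 0.156, adjusted p = 0.00528). Both calls held with each of the 6 arrays left out in turn. Cidec, the related fat cell gene, read 546, 193 and 339 in HF mice and 120, 99.0 and 93.5 in LF mice, without overlap, but missed the threshold (log2 1.54, adjusted p = 0.0542). HF 1 was highest and HF 2 lowest in all 3 genes. Plin2, the main perilipin of hepatocytes, was at 6646 ± 1219 in HF mice and 6262 ± 351 in LF mice (SD, n = 3 each; log2 0.07, adjusted p = 0.848). The markers of fat cells tested had summed intensities of 10214 to 12391 in HF mice and 7653 to 9482 in LF mice over 4 genes, of which 0 changed. Car3 made up most of these sums, with 11541, 9625 and 11675 in HF mice and 7218, 8542 and 9039 in LF mice. Slc36a2, another of the 4, was dim on all 6 arrays. The sums therefore report mainly 1 gene and do not measure fat cells. The part of fat cells in the rise of Cidea and Plin4 was not tested.

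In the list of PPAR-gamma and fatty acid uptake, 2 of 16 genes rose and 1 fell, against 0.627% and 0.275% of all genes. The median log2 fold change of the list was 0.17. Pparg itself read 461, 368 and 436 in HF mice and 227, 199 and 225 in LF mice (log2 0.91, SE 0.172, adjusted p = 0.0192), a rise of similar size in all HF mice. Mogat1, a monoacylglycerol acyltransferase and known target of PPAR-gamma, read 336, 192 and 275 in HF mice and 129, 160 and 115 in LF mice (log2 0.89, adjusted p = 0.0154). Cd36, a fatty acid uptake receptor (log2 0.61, adjusted p = 0.109), Fabp4, a fat cell fatty acid binding protein (log2 0.91, adjusted p = 0.145), and Lpl, lipoprotein lipase (log2 1.24, adjusted p = 0.242), did not pass. HF mice lay above LF mice without overlap in 9 of the 16 genes and below in 2. Over all genes, 22.6% did not overlap in either direction. Fabp5 went the other way: this fatty acid binding protein read 469, 194 and 310 in HF mice and 638, 1935 and 2339 in LF mice (log2 -2.17, SE 0.472, adjusted p = 0.0413). LF 1 was far below the other LF mice in Fabp5. Calls were lost without single arrays for Pparg (with any array other than HF 2 left out, adjusted p up to 0.114), Mogat1 (without HF 1, HF 3, LF 1 or LF 3, up to 0.0857) and Fabp5 (with any array other than LF 1 left out, up to 0.141).

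Fatty acid synthase rose, with a call at the threshold. Of 24 genes of fatty acid and triglyceride synthesis tested, 1 rose and 0 fell (median log2 0.02), against 0.627% and 0.275% of all genes. Fasn, fatty acid synthase, read 1427, 966 and 1146 in HF mice and 550, 605 and 811 in LF mice (log2 0.83, adjusted p = 0.0494). The call was lost without HF 1, HF 3, LF 1 or LF 2 (adjusted p up to 0.259). In all, Fasn lost its call in 13 of 20 alternative settings, among them arrays centred on the median, no dim filter and the mean of probe sets. Its regulator Srebf1 (log2 0.74, adjusted p = 0.0857) and the desaturase gene Scd1 (11590 ± 684 in HF mice and 14956 ± 826 in LF mice, SD, n = 3 each; log2 -0.37, adjusted p = 0.109) did not pass. Mid1ip1, which promotes the activity of acetyl-CoA carboxylase and belongs to no list here, rose (669, 978 and 716 in HF mice, 417, 451 and 489 in LF mice; log2 0.76, adjusted p = 0.0272). It was picked after its values were seen.

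Cholesterol synthesis genes lay mostly above 0. Of 21 tested, 2 rose and 0 fell, against 0.627% and 0.275% of all genes. A log2 fold change above 0 was found in 16 of the 21 (median 0.26), against 42.4% of all genes. HF mice lay above LF mice without overlap in 5 of the 21 and below in 1, against 22.6% of all genes in either direction. Msmo1, a methylsterol oxidase of the late pathway, read 1228, 632 and 1112 in HF mice and 288, 294 and 561 in LF mice (log2 1.35, SE 0.242, adjusted p = 0.0135). Insig1, which holds SREBP precursors back in the endoplasmic reticulum, read 564, 514 and 546 in HF mice and 344, 343 and 474 in LF mice (log2 0.48, adjusted p = 0.0413). In both, LF 3 was the highest LF mouse yet below every HF mouse. Idi1 (log2 0.89, adjusted p = 0.114), Hmgcs1 (log2 0.73, adjusted p = 0.136) and Sqle (log2 0.61, adjusted p = 0.332), other enzymes of the pathway, did not pass. Msmo1 and Insig1 were lost without HF 1, HF 3, LF 1 or LF 2 (adjusted p up to 0.0897 and 0.203).

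Lipid handling outside these lists changed in both directions. Ildr2, a membrane protein of the endoplasmic reticulum linked to liver fat in mice, read 583, 967 and 682 in HF mice and 314, 329 and 226 in LF mice (log2 1.30, SE 0.172, adjusted p = 0.004; 0.42 and 1.14 at its other bright probe sets). Ces1g, a carboxylesterase that hydrolyses lipid esters, read 2149, 1774 and 1960 in HF mice and 878, 1023 and 1075 in LF mice (log2 0.97, adjusted p = 0.00402). Both calls held with each array left out in turn. Of 21 genes of lipoprotein handling tested, 1 fell and 0 rose, against 0.275% and 0.627% of all genes. The gene that fell was Apom, the apolipoprotein that carries sphingosine-1-phosphate. It read 1910, 1839 and 1928 in HF mice and 2823, 3057 and 3218 in LF mice (log2 -0.67, adjusted p = 0.0135), a narrow spread in both groups, although the call was lost without HF 1, HF 3 or LF 3 (up to 0.0693). Hacl1, a peroxisomal enzyme that shortens branched and 2-hydroxy fatty acids, fell by 0.63 on the log2 scale (adjusted p = 0.0368, lost with any array other than HF 2 left out, up to 0.203). Tm6sf2, which helps to load very low density lipoprotein with lipid, fell by 0.47 (adjusted p = 0.00874), and Pnpla7, a lysophospholipase, by 0.59 (adjusted p = 0.0317). The last 2 belong to no list and were picked after their values were seen.

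**Figure D3:**
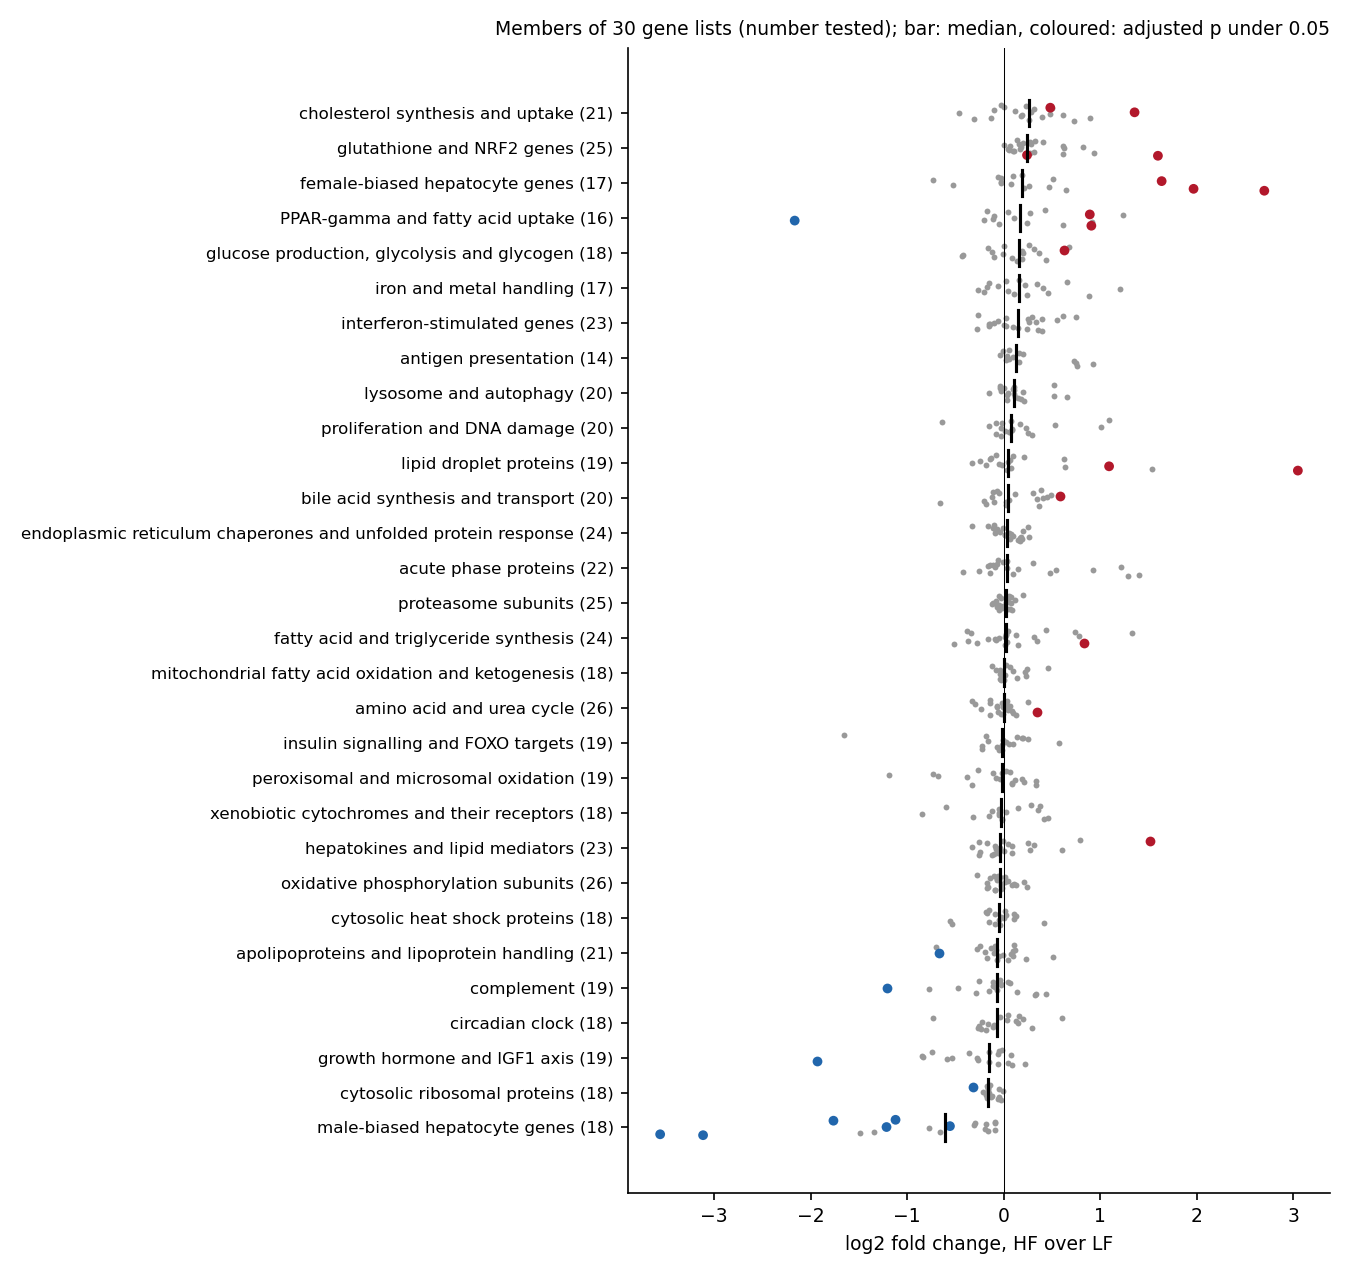
Log2 fold change of HF over LF (horizontal axis) of the members of 30 pathway lists, with the number tested in brackets. Black bars are medians, and red and blue points are members that rose and fell. The median of the male-biased genes (-0.61) lies farthest from 0 among these lists, and at most 6 members of a list are coloured.

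Glutathione and NRF2 genes lay above 0 as a group. Of 25 tested, 2 rose and 0 fell, against 0.627% and 0.275% of all genes. The 25 tested all had a log2 fold change above 0, against 42.4% of all genes. Their median was 0.24, against -0.03 over all genes. In 8 of them HF and LF mice did not overlap, against 22.6% of all genes. Gsta2, a glutathione transferase, read 2183, 2565 and 2270 in HF mice and 1013, 796 and 545 in LF mice (log2 1.60, SE 0.302, adjusted p = 0.0191), and LF mice spread more than HF mice. Gsta3, an abundant transferase of the same class, read 7126, 7495 and 7070 in HF mice and 6116, 5905 and 6328 in LF mice (log2 0.24, adjusted p = 0.0413). The NRF2 targets Gstm3 (log2 0.94, adjusted p = 0.258) and Nqo1 (log2 0.83, adjusted p = 0.144) did not pass, and HF 1 was the highest mouse in both, with 4436 for Gstm3 against 1788 and 2634 in the other HF mice. Gsta2 was lost without HF 1, HF 3, LF 2 or LF 3 (adjusted p up to 0.0936), and Gsta3 whichever array was left out (up to 0.137).

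Single genes of other pathways changed. Of 18 genes of glucose and glycogen metabolism tested, 1 rose and 0 fell, against 0.627% and 0.275% of all genes, with a median of 0.16. HF mice lay above LF mice without overlap in 8 of the 18 and below in 2, against 22.6% of all genes in either direction. The gene that rose was Gbe1, the branching enzyme of glycogen (1705, 1421 and 1476 in HF mice, 901, 982 and 1085 in LF mice, log2 0.62, adjusted p = 0.0181). Pck1, the gatekeeper of glucose production, did not pass (log2 -0.43, adjusted p = 0.195). Glul, glutamine synthetase, which marks the hepatocytes around the central vein, read 4867, 5295 and 4967 in HF mice and 3974, 4123 and 3800 in LF mice (log2 0.35, adjusted p = 0.00528) and kept its call with each array left out. The other 10 of 11 pericentral markers did not pass, and the median log2 fold change of the 11 was 0.06. HF mice lay above LF mice without overlap in 1 of them and below in 1. The summed intensity of the 11 was 38302 to 40472 in HF mice and 35591 to 37173 in LF mice. Such a sum weighs bright genes like Glul most and does not measure these cells. Of 20 bile acid genes tested, 1 rose and 0 fell, against 0.627% and 0.275% of all genes. It was Abcc3, an exporter of bile acid and drug conjugates (log2 0.58, adjusted p = 0.0483). The calls of Gbe1 and Abcc3 were lost without HF 1, HF 3, LF 1 or LF 2, and that of Abcc3 also without LF 3 (adjusted p up to 0.112 and 0.244).

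Among changed genes in no list, mitochondrial ones went both ways. Idh2, the mitochondrial isocitrate dehydrogenase, read 1699, 1386 and 1422 in HF mice and 1021, 896 and 932 in LF mice (log2 0.65, adjusted p = 0.0364), but its other bright probe set gave -0.08. Agxt2, a mitochondrial aminotransferase, rose by 0.73 on the log2 scale, Suclg2, a subunit of succinyl-CoA ligase, by 0.35 and Mpc1, a subunit of the mitochondrial pyruvate carrier, by 0.25, each with HF mice above LF mice. Timm9, a chaperone of the mitochondrial intermembrane space, fell by 0.46 (adjusted p = 0.0375) and Gfer, a sulfhydryl oxidase of the same space, by 0.36 (adjusted p = 0.0424). These genes were chosen after their values were seen, among the 101 changed genes that stand in no list. Enzymes that break down branched-chain amino acids and lysine were put together as a list only after such genes had been seen among the rises: Mccc1 (log2 0.37), Gcdh (log2 0.36), Bckdhb (log2 0.30) and Aldh6a1 (log2 0.27) were 4 of 22 that rose (0.627% of all genes), and 18 of 22 lay above 0 (42.4% of all genes). Nothing is drawn from counts of a list made this way. Of the lists of oxidation, 0 of 18 genes of mitochondrial fatty acid oxidation and ketogenesis, 0 of 19 of peroxisomal and microsomal oxidation and 0 of 26 subunits of oxidative phosphorylation passed. With 0.902% of all genes changed, 0 is near that share in lists of this size. Without overlap, HF mice lay above LF mice in 6, 3 and 4 of these genes and below in 1, 6 and 8. Over all genes, 22.6% did not overlap in either direction. Cpt1a, which admits fatty acids to the mitochondrion, was at 3248 ± 319 in HF mice and 3251 ± 397 in LF mice (SD, n = 3 each).

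Genes of cells other than hepatocytes changed singly. Lyve1, the hyaluronan receptor of sinusoidal and lymphatic endothelium, read 348, 310 and 337 in HF mice and 157, 140 and 152 in LF mice (log2 1.07, SE 0.224, adjusted p = 0.0351), but the other 9 of 10 sinusoidal markers did not pass, and their summed intensity with Lyve1 was 4730 to 5009 in HF mice and 4563 to 4902 in LF mice. Postn, which encodes the matrix protein periostin, rose by 0.99 (409, 265 and 311 in HF mice, 166, 146 and 154 in LF mice; adjusted p = 0.0469). Of 16 markers of stellate cells and matrix 0 passed and 15 lay above 0, against 42.4% of all genes, with a median of 0.25. HF mice lay above LF mice without overlap in 5 of the 16 and below in 1, against 22.6% of all genes in either direction. The summed intensity of the 16 was 7223 to 8542 in HF mice and 6085 to 6773 in LF mice, without overlap. Such a sum weighs bright genes most. The collagen gene Col3a1 read 901, 385 and 656 in HF mice and 264, 241 and 252 in LF mice (adjusted p = 0.211), and Col1a1 was at 211 ± 19.4 in HF mice and 203 ± 12.7 in LF mice (SD, n = 3 each). The part of these cells in the rise of Postn was not tested. Lgals1, which encodes galectin-1, a lectin of many cell types, read 4074, 2111 and 3157 in HF mice and 1095, 1412 and 731 in LF mice (log2 1.51, adjusted p = 0.0348), and its other probe set gave the same log2 fold change of 1.51. The calls of Lyve1 and Postn were lost with any array other than HF 2 left out (adjusted p up to 0.168 and 0.244), and that of Lgals1 without HF 1, HF 3, LF 1 or LF 3 (up to 0.201).

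In the lists of inflammatory genes 0 members rose. With 0.627% of all genes higher, 0 is near that share in lists of this size. Of 22 acute phase genes, 23 interferon-stimulated genes and 14 genes of antigen presentation, 0 passed, with medians of 0.03, 0.15 and 0.13. Of these, 12, 16 and 12 lay above 0, against 42.4% of all genes. HF mice lay above LF mice without overlap in 0, 6 and 0 of them, and below in 2, 1 and 0. Over all genes, 22.6% did not overlap in either direction. Nor did any pass among 12 Kupffer cell markers (median 0.19, with summed intensities of 10179 to 14141 in HF mice and 8825 to 12695 in LF mice), 9 markers of T and NK cells, 7 of B and plasma cells and 5 of neutrophils. Of 11 markers of recruited and lipid-associated macrophages, 0 rose and 1 fell, which was Fabp5, described above. Yet 8 of the 11 lay above 0, with a median of 0.10. HF mice lay above LF mice without overlap in 5 of them and below in 1. Trem2, a marker of lipid-associated macrophages, was at 175 ± 15.0 in HF mice and 186 ± 23.0 in LF mice (SD, n = 3 each). Saa1, an acute phase protein, read 3866, 2489 and 2619 in HF mice and 906, 4202 and 434 in LF mice, so that LF 2 was above every HF mouse while the other LF mice were below. Nlrp12, a member of the NLR family expressed in myeloid cells, was lower in HF mice (581, 637 and 670, against 949, 1012 and 1100 in LF mice; log2 -0.68, adjusted p = 0.00402) and kept its call with each array left out.

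Among the largest changes were genes that no list holds. Adgrv1, an adhesion receptor of the G protein-coupled class, read 458, 298 and 326 in HF mice and 115, 136 and 133 in LF mice (log2 1.37, adjusted p = 0.00528), but its other bright probe set gave -0.09. Rcan2, a regulator of the phosphatase calcineurin, read 459, 499 and 446 in HF mice and 239, 266 and 205 in LF mice (log2 0.94, adjusted p = 0.0185). Ermp1, a metallopeptidase of the endoplasmic reticulum (1005, 578 and 784 in HF mice, 341, 422 and 431 in LF mice; log2 0.93, with -0.14 and 0.72 at its other bright probe sets), and the non-coding transcripts Hectd2os (log2 1.19) and 9130409I23Rik (log2 1.53) rose too, and HF and LF mice did not overlap in any of them. Of the falls, Slc25a33, a mitochondrial carrier of pyrimidine nucleotides, read 306, 359 and 365 in HF mice and 709, 460 and 537 in LF mice (log2 -0.68, adjusted p = 0.0251). Gm2788 (log2 -0.92), Smim22 (-0.72), Zfp707 (-0.63) and Ankrd9 (-0.60) fell as well. Adh6-ps1, Iglv1, Kcna6 and Mir1949 were dim in every HF mouse, and their LF means were at least 1.62-fold, 1.54-fold, 1.34-fold and 1.5-fold higher. The other bright probe set of Kcna6 gave a log2 fold change of 0.04, that of Iglv1 -0.18 and that of Smim22 -0.18. Of 47 changed genes chosen by size or by list, 10 kept their call with each of the 6 arrays left out in turn (Slco1a1, Cyp2b9, Cyp2b13, Cidea, Plin4, Ildr2, Ces1g, Adgrv1, Nlrp12 and Glul). The call was lost without HF 1 in 35 of the 47, without HF 2 in 4, without HF 3 in 33, without LF 1 in 30, without LF 2 in 20 and without LF 3 in 29.

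Genes of the ribosome lay slightly lower in HF mice. The 18 genes of cytosolic ribosomal proteins tested all lay below 0, with a median of -0.16, and 1 fell: Rps18, at 3043, 3408 and 3037 in HF mice and 3957, 4030 and 3810 in LF mice (log2 -0.31, adjusted p = 0.0409; -0.31 to 0.07 at its 3 other bright probe sets). Of all genes, 42.4% lay above 0 and 0.275% fell. In 13 of the 18 every HF mouse was below every LF mouse, against 22.6% of all genes without overlap in either direction. The median stayed below 0 with quantile normalization (-0.14) and with arrays centred on their median (-0.12), while the call of Rps18 was lost under both and with any array other than HF 2 left out (adjusted p up to 0.207). Rps26, which the list does not hold, fell by 0.27 on the log2 scale (adjusted p = 0.0288) and was picked after its values were seen. There were 0 changed members among 25 proteasome subunits, 24 genes of endoplasmic reticulum chaperones, 18 heat shock genes, 18 clock genes, 19 genes of insulin signalling, 18 xenobiotic cytochromes and their receptors, 20 genes of lysosome and autophagy, 20 of proliferation and DNA damage and 17 of iron and metals. With 0.902% of all genes changed, 0 is near that share in lists of this size. In all, 697 of 811 listed genes were tested, 27 of the 128 changed genes stood in a list, and 27 of the 45 lists had no changed member.

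The same diets were compared in 12 other mice, none of which shares an array with the sedentary mice. With a running wheel, 127 of the 128 genes moved in the same direction. All 89 genes that rose in sedentary mice were also higher in HF+Ex than in LF+Ex mice, with a median log2 fold change of 0.44 (0.49 in sedentary mice), although only 47.5% of all genes lay above 0 in runners. Of the 39 that fell, 38 were lower in HF+Ex mice (median -0.53, and -0.59 in sedentary mice). The exception was Car12, a carbonic anhydrase (0.14). The test in runners alone called 244 genes (1.72%; 1.06% higher and 0.662% lower), among them 53 of the 89 rises and 21 of the 39 falls in the same direction, which is 57.8% of the genes changed in sedentary mice and 30.3% of those changed in runners. Slco1a1 was at 331 ± 237 in HF+Ex and 2345 ± 271 in LF+Ex mice, Cyp2b9 at 1720 ± 275 in HF+Ex and 80.97 ± 17.4 in LF+Ex mice, and Cidea at 721 ± 554 in HF+Ex and 101 ± 46.6 in LF+Ex mice (SD, n = 3 each). Over the 128 genes the log2 fold changes of the 2 comparisons correlated with r = 0.925, and over all 14198 genes with r = 0.744. These are correlations across genes, which are not independent replicates. HF+Ex 3 lay far out on the first principal component on the same side as HF 1 (-19.18 and -21.18). Its part in the correlations was not tested.

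Whether the diet effect differed between runners and sedentary mice was tested by the interaction in limma. It called 0 of the 128 genes (22 at an unadjusted p under 0.05) and 1 of all 14198 (0.00704%, lower; 358 unadjusted). That gene was Etnppl, a phospholyase of phosphoethanolamine, which read 986 ± 100.2 in HF and 927 ± 28.4 in LF mice, but 630.2 ± 109 in HF+Ex and 1536 ± 149.8 in LF+Ex mice (SD, n = 3 each; difference of the diet effects -1.36, adjusted p = 0.0193). The count was 0 in 9 of 12 fits with an array left out (1 without HF 1, HF+Ex 2 or LF+Ex 3) and in 4 of 14 other settings. The median standard error of an interaction was 0.121, so that a small difference would pass unseen. Egfr, which did not pass in runners (log2 -0.19, adjusted p = 0.825), Gsta2 (0.36, adjusted p = 0.599) and Keg1 (-0.28, adjusted p = 0.609) had smaller values than in sedentary mice, but none of these 3 differences from sedentary mice passed.

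**Figure D4:**
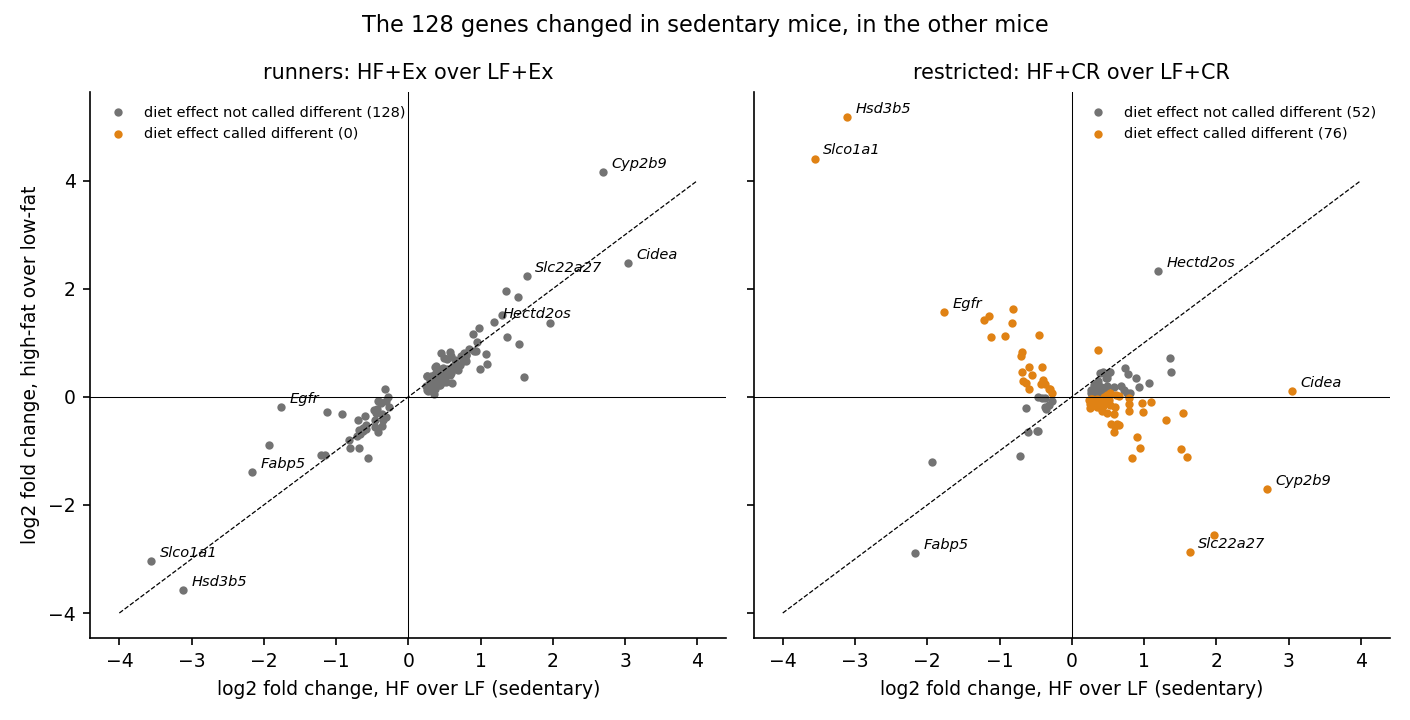
Log2 fold change of high-fat over low-fat diet in runners (left) and in restricted mice (right) against the same in sedentary mice, for the 128 genes changed in sedentary mice. The dashed line marks equal effects, and orange points are genes whose diet effect was called different (0 in runners, 76 in restricted mice). Points follow the dashed line in runners, while Slco1a1 and Hsd3b5 lie far above it and Cyp2b9 and Slc22a27 far below it in restricted mice.

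With 30% fewer calories, the diets set most of these genes apart in another way. Of the 89 rises, 45 were higher in HF+CR than in LF+CR mice (median log2 0.00, with 58.6% of all genes above 0), 11 were called in the same direction and 14 in the opposite one. Of the 39 falls, 14 were lower in HF+CR mice (median 0.24), 6 were called in the same direction and 17 in the opposite one. The test in restricted mice called 1269 genes (8.94%; 5.62% higher and 3.32% lower). The diet effect differed from that in sedentary mice in 76 of the 128 genes (51 rises and 25 falls), and in 815 of all genes (5.74%; 3.35% upwards and 2.39% downwards). This difference uses the HF and LF arrays by which the 128 genes were chosen, so that the share among them is a description.

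Of the 18 male-biased genes tested, 14 were higher and 0 lower in HF+CR than in LF+CR mice, and the interaction passed in 14, all upwards. Of the 17 female-biased genes tested, 10 were lower and 0 higher, and the interaction passed in 9, all downwards. Of all genes, 5.62% were higher and 3.32% lower in HF+CR mice, and the interaction passed in 5.74%. Slco1a1 was at 2450 ± 54.2 in HF+CR and 101 ± 17.1 in LF+CR mice, and Hsd3b5 at 3271 ± 820 in HF+CR and 72.9 ± 4.72 in LF+CR mice (SD, n = 3 each), which were all dim, so that HF+CR mice were at least 29.6-fold higher. LF+CR mice were thus at the low level that HF mice had among sedentary mice. Cyp2b9 was at 728 ± 135 in HF+CR and 2482 ± 770 in LF+CR mice, and Slc22a27 at 105 ± 14.0 in HF+CR and 879 ± 193 in LF+CR mice. Of the genes tested in each list, the median of the male-biased genes was 1.26 in restricted mice, against -0.60 in runners and -0.61 in sedentary mice, and that of the female-biased genes was -1.11 in restricted mice, against 0.44 in runners and 0.18 in sedentary mice. Cidea, in contrast, was low on both diets (75.1 ± 10.8 in HF+CR and 68.2 ± 2.10 in LF+CR mice, both means below the dim thresholds). Pparg (log2 -0.74, adjusted p = 0.0133) and Fasn (log2 -1.13, adjusted p = 0.00178) were lower in HF+CR than in LF+CR mice. Fabp5 (log2 -2.89, adjusted p = 0.00148), Socs2 (-1.20, adjusted p = 0.0474) and Tm6sf2 (-0.63, adjusted p = 9.25e-05) fell in HF+CR mice as they did in HF mice, and Lepr was lower there too (-1.76, adjusted p = 0.0109). The interaction for Fabp5, Socs2 and Tm6sf2 did not pass (adjusted p = 0.521, 0.387 and 0.348).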

How the data were processed

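Liver RNA of 18 male mice (6 groups of 3) was measured, and the 6 HF and LF arrays are the subject here. As deposited, each value is the linear intensity of a probe set. The lowest was 31.08 and the highest 21653.94, and the means of the arrays lay between 304.9 and 307.8. Per the labels' protocols, Trizol was used for extraction and the cRNA was labelled with biotin. How the authors summarised and normalized the deposited intensities is not given in the sources used here. Arrays were grouped by their labels. The number of arrays limits the precision.

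Of 45101 probe sets, 64 controls were left out, and of the other 45037, 34945 had 1 gene symbol in GEO's platform annotation, 932 several and 9160 none. Only the first kind was used, with the probe set of highest mean over all arrays for each of 18193 genes. Genes above the 40th percentile of an array on at least 3 arrays were tested (14198), and 3995 were too dim. limma 3.58.1 in R 4.3.3 fitted log2 of the intensity plus 16, with 1 mean per group over all 18 arrays (12 residual and 3.61 prior degrees of freedom). P-values were adjusted by the Benjamini-Hochberg method over all genes tested, with a threshold of 0.05. SE is the moderated standard error. The fold change of a low gene is understated by the offset of 16. In bounds, the dim group is raised, per array, to the lowest bright signal.

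The 45 gene lists, the rule for named genes (the 20 largest rises and falls, up to 6 changed members of a list, key genes and leading interactions) and the comparison itself were chosen with earlier results of these data known, so list counts are descriptions. Other genes were named after their values were seen, as marked. Alternatives were other normalizations, offsets, filters, variance models and subsets of arrays. Recovery for HF against LF was checked in 20 simulated data sets with 200 changed genes each. Of changes of 0.5 on the log2 scale 76.2% were recovered, and of changes of 1 96%, with 4.86% false calls. These rates describe the simulated data. Whether they hold for the real arrays, some of which stood apart from their group, was not tested. They are therefore no estimate of the false calls among the genes called here.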

Additional observations from a re-analysis of the deposited data

Results flagged for a closer look

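For 10 genes changed in sedentary mice, the test of the difference itself (the interaction in limma) showed that the diet effect was not the same in restricted mice as in sedentary mice. The values are differences of log2 fold changes, the effect in restricted mice (HF+CR over LF+CR) minus that in sedentary mice (HF over LF). They use the arrays by which the genes were chosen. Where a group was dim on all its arrays, the fitted value rests on background, and a bound with the dim group raised to its threshold follows: at least 7.74 for Hsd3b5 (dim in LF+CR and HF mice) and -4.13 or lower for Cyp2b13 (dim in HF+CR and LF mice). Cidea was dim in both restricted groups, so that no restricted effect can be given for it.

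Among genes lower in HF mice, the difference was 8.29 for Hsd3b5 (5.18 in restricted and -3.11 in sedentary mice, adjusted p = 2.018e-05), 7.96 for Slco1a1 (4.41 and -3.56, adjusted p = 1.531e-06), 3.33 for Egfr (1.57 and -1.76, adjusted p = 0.0008519), 2.65 for Lifr (1.5 and -1.15, adjusted p = 0.0005575) and 2.64 for C8b (1.43 and -1.21, adjusted p = 7.463e-05), each with the restricted effect first. Among genes higher in HF mice, it was -4.52 for Cyp2b13 (-2.56 and 1.97, adjusted p = 4.105e-05), -4.51 for Slc22a27 (-2.87 and 1.63, adjusted p = 9.385e-06), -4.41 for Cyp2b9 (-1.71 and 2.70, adjusted p = 9.385e-06), -2.94 for Cidea (a fitted 0.11 and 3.05, adjusted p = 0.007964) and -2.72 for Gsta2 (-1.12 and 1.60, adjusted p = 0.001583). The interaction passed in 76 of the 128 genes changed in sedentary mice.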

How the results depend on the processing

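HF against LF gave 128 changed genes. Other normalizations, offsets, dim filters, the mean of probe sets and a trended variance gave 121 to 161. Larger shifts came from array weights (1006 in HF against LF, 2040 in HF+CR against LF+CR, 1233 in HF+Ex against LF+Ex, 1592 and 2 for the restricted and runner interactions) and from the compared arrays alone (54, 437 and 132 for the 3 diet comparisons). Replicate numbers are shared between groups, but the labels do not state that they pair the mice, and no block was used. The deviations of HF and LF mice of the same number correlated at 0.005, 0.097 and -0.142. In the restricted and running groups these correlations lay between -0.294 and 0.199. With 3 mice per group such values cannot exclude a pairing. With the number as a replicate block the counts were 72 for HF against LF and 0 for the runner interaction. With each array left out they were 23 to 201, 793 to 1293 (HF+CR against LF+CR), 77 to 219 (HF+Ex against LF+Ex), 389 to 1038 (restricted interaction) and 0 to 1 (runner interaction). The runner interaction was also 0 with quantile normalization and with the mean of probe sets. After the data had been seen, 3 alternatives were added. Without the 4 arrays with pancreatic transcripts, LF 1 among them, the counts were 13, 640 and 54, and 287 and 0 for the interactions. With the clock difference as a covariate they were 232 for HF against LF and 1395 for the restricted interaction. Without 3 arrays far out on the first component, HF 1 among them, HF against LF gave 121 genes. Only 70 of these were among the 128, so that a similar count hid a different set. The restricted interaction gave 371 without these 3 arrays. The cause of these shifts was not tested, but fewer arrays also give fewer degrees of freedom. Centring arrays on their median moved the share of higher calls to 52.9% from 62.9% in HF+CR against LF+CR and to 45.1% from 58.3% in the restricted interaction. Cidea, Cyp2b9, Ildr2, Nlrp12 and Slco1a1 kept their call in HF against LF in all 20 alternatives, and no named gene changed direction when called. Dim genes have only bounds.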

Other observations

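The X chromosome held 409 of the 14198 genes tested (2.88%) and 12 of the 128 changed genes (9.38%), 10 higher and 2 lower in HF mice, so that 2.93% of its genes were called against 0.902% of all genes. The median log2 fold change of all its genes was -0.01. These counts were noticed in the data and were not tested.

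For 76 of the 128 changed genes 1 probe set was bright. Of the other 52, another bright probe set moved in the same direction in each case for 40 genes and not in each case for 12, and in 14 every other probe set moved less than 25% as far.

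LF 1 stood above the other LF mice in 3 genes that were picked after their values were seen. Fgf21, a hormone of the fasted liver, read 263, 181 and 279 in HF mice and 533, 182 and 174 in LF mice. Igfbp1, which insulin holds down, read 1136, 455 and 947 in HF mice and 3104, 850.3 and 1096 in LF mice. Pdk4, which blocks the use of pyruvate, read 185, 102 and 153 in HF mice and 335, 89.2 and 90.3 in LF mice. LF 2 stood above the other LF mice in Lcn2, an acute phase protein (1086, 341 and 355 in HF mice, 130, 808 and 80.5 in LF mice). None of these genes passed, and the part of feeding or of time of day was not tested.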
